A study of Mus musculus with 12 samples.

Results

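The BAF complex, the mammalian SWI/SNF remodeller, was followed here through 10 of its subunits (Arid1b, Arid1a, Smarca4, Smarcb1, Smarcc1, Smarcc2, Smarcd1, Smarce1, Actl6a and Dpf2). The genes were chosen by name, and Arid1b was selected on its fall in Chd4 KD in these same arrays. The values of Arid1b in Chd4 KD are therefore a description and carry no test. A total of 17 of 39429 probes carried an accession of the 10 genes, and all 10 genes were among the 29839 genes tested.

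BAF uses the energy of ATP to move or evict nucleosomes, and its mutually exclusive paralogs define different assemblies. Arid1a and Arid1b are alternative large subunits that bind DNA without strong sequence preference, and a complex holds one or the other. ES cells are known for an assembly built around Smarca4 (Brg1), Arid1a and Smarcc1, which is needed for self-renewal. Chd4 is the ATPase of a separate remodeller, NuRD, to which Mbd3 or Mbd2 also belongs.

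RNA was measured in E14 mouse ES cells, an established line grown in serum and LIF without feeders, 48 hr after transfection of a pool of short interfering RNAs made from a longer double-stranded RNA (esiRNA). Each of 6 groups had 2 one-colour arrays. The control was EGFP KD, which targets a gene for a fluorescent protein, and the others were Chd4 KD, Mbd3 KD, Mbd2 KD, Tet1 KD and Dnmt1 KD, with the line, the transfection and the time shared by all. Dnmt1 copies DNA methylation, Tet1 oxidises 5-methylcytosine, and Mbd3 and Mbd2 are methyl-CpG binding domain proteins. The cells were 1 line and a transfected population rather than a clone, so that cells with and without KD were measured together, and in such bulk RNA fewer cells expressing a gene and less RNA per cell cannot be told apart. The study compared these groups to ask how factors of DNA methylation and NuRD act on gene expression.

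Signals are given as log2 of the processed intensity over the array's 75th percentile, with a floor at -4.86, so that 0 is the 75th percentile. The share of probes well above background ranged from 76.9% to 95.2% between arrays, and none of the 17 probes was saturated. The 12 arrays lay on 3 slides, and EGFP KD was on slides 1 and 2 only. By some probes of the targeted genes, the arrays did not all follow their labels. Probe A_55_P2122997 of Tet1 stood at 2.05 and 0.25 on the arrays labelled Tet1 KD replicates 1 and 2. It stood at 0.28 and 1.88 on those labelled Mbd2 KD replicates 1 and 2. Probe A_66_P133043 of Mbd2 stood at -2.71, -1.19, -1.20 and -2.73 in that order. The brighter Mbd2 probe, A_55_P2036526, did not show this pattern, at -0.97, -1.38, -0.85 and -0.85 (-0.71 and -0.83 in EGFP KD). The dimmer Tet1 probe, A_51_P512172, went with the first, at 0.36, -0.80, -1.06 and 0.38. Comparisons with the arrays labelled Tet1 KD and Mbd2 KD are given as labelled, and the other comparisons were repeated without these 4 arrays. That fit called no member and 509 genes in Chd4 KD, and 0 genes of any kind in Mbd3 KD and Dnmt1 KD, where a count of members therefore says nothing. Chd4 stood at 4.13 and 3.97 in EGFP KD and at 2.50 and 3.04 in Chd4 KD, where it fell by 1.28 (SE 0.24, limma adjusted p = 0.042). The ES cell markers, 10 genes that include Pou5f1 and Nanog, summed to between 160 and 210 times the 75th percentile on every array, and none was called in any KD.

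The promoter windows of Arid1b and of Smarcd3, another SWI/SNF subunit, are shown because both genes were low in Chd4 KD and because the proteins knocked down write, oxidise or belong to complexes that read methylation of CpG. Both come from RefSeq (GRCm38.p6), run 5′ to 3′ from 250 bases before to 50 bases after an annotated start, and have each CpG in capitals. The Arid1b window is chr17:4994824-4995123 on the plus strand, inside the annotated gene (chr17:4994297-5347656), and the Smarcd3 window is chr5:24601953-24602252 on the minus strand.
Arid1b: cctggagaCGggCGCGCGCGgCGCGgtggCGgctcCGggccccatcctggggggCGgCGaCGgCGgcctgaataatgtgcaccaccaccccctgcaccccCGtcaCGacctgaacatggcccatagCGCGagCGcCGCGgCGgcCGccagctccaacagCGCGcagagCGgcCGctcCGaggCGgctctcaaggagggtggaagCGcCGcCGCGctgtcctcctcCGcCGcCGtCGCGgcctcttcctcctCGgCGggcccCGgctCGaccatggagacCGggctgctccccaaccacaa
Smarcd3: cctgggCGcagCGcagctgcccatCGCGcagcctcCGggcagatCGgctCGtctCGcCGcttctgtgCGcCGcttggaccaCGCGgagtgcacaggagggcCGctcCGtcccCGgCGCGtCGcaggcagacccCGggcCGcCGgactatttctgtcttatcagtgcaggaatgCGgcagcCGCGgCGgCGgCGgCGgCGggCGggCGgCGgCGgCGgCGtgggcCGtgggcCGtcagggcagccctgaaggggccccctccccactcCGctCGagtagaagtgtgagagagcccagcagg
The letters CG, which read the same on both strands, occurred 42 times in the Arid1b window and 40 times in the Smarcd3 window, against a median of 7 over 32851 RefSeq windows of 300 bases, of which 94.6% held at least 1. Fewer CpGs stood in 97.0% of all windows than in that of Arid1b. The other members were also CpG-rich, since the 10 windows of the 9 members found in the table held between 20 and 48, from Dpf2 to Smarcc2. Smarce1 had no window in the table. Methylation was not measured in these files, and the part of CpG number in the values below was not tested.

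The 3 Arid1b probes, all designed on the transcript NM_001085355, differed in their values. Probe A_52_P289256, which was well above background on all 12 arrays and stands for the gene here, read -1.12 and -1.21 in EGFP KD. It stood at -4.10 and -4.09 in Chd4 KD, against -0.87 and -1.76 with Mbd3 KD. With Mbd2 KD it read -0.78 and -1.09, with Dnmt1 KD -0.27 and -1.19, and with Tet1 KD -1.02 and -0.81. Both Chd4 KD arrays lay far below the other 10. Both arrays labelled Tet1 KD and both labelled Mbd2 KD lay above both EGFP KD arrays, as was so for 23.2% and 10.5% of all genes. Those of Dnmt1 KD and Mbd3 KD overlapped EGFP KD. The mean of 2 arrays was -1.16 ± 0.06 (SD) in EGFP KD and -4.10 ± 0.01 in Chd4 KD, a difference of -2.93, or 7.64-fold lower. The size depended on the background correction, since normexp with quantile normalization gave -2.26, and the scaled signal in Chd4 KD was only 1.69 and 1.70 times the floor. On slide 2, which held arrays of both groups, the difference was -2.90, and on slide 3 the difference of the Chd4 KD array was -2.90 from Dnmt1 KD, -2.33 from Mbd3 KD and -3.01 from Mbd2 KD. Of the 29839 genes, 24 had a difference as low or lower, Arid1b included, which describes the choice of the gene and is no finding.

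Probe A_55_P2103657 showed no such drop. It was well above background on 9 arrays and followed the slide. On slide 1 it was at the floor on 3 arrays and at -4.41 on the Dnmt1 KD array. On slide 2 it read -3.34 in EGFP KD, -3.13 and -2.93 in Tet1 KD and -3.66 in Chd4 KD, and on slide 3 the value was -3.52 for Chd4 KD, against -3.12 for Dnmt1 KD, -3.29 for Mbd2 KD and -3.41 for Mbd3 KD. The Chd4 KD array was the lowest of the 4 on each of these slides, by between 0.11 and 0.32 from the next. These gaps between single arrays were smaller than the spread among the other arrays of the slide, so they give no direction. Pooled over slides, its mean in Chd4 KD was 0.51 above that in EGFP KD, and with slide as a block in the model it was -0.22.

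Probe A_55_P2103641 was well above background on 3 arrays (both Dnmt1 KD arrays and Tet1 KD replicate 1) and lay at the floor on all 12, so it gave no fold change. Its processed intensity, before scaling, was 59.8 and 32.3 in EGFP KD, and between 35.8 and 58.4 on the 6 arrays of Dnmt1 KD, Mbd2 KD and Tet1 KD. It was 5.41 and -19.8 with Mbd3 KD and 5.69 and -3.50 with Chd4 KD. The 4 lowest values were those of Mbd3 KD and Chd4 KD, all of them not well above background. Which stretch of the transcript each probe reads was not known, because the sequences of the probes were not analysed here.

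**Figure D1:**
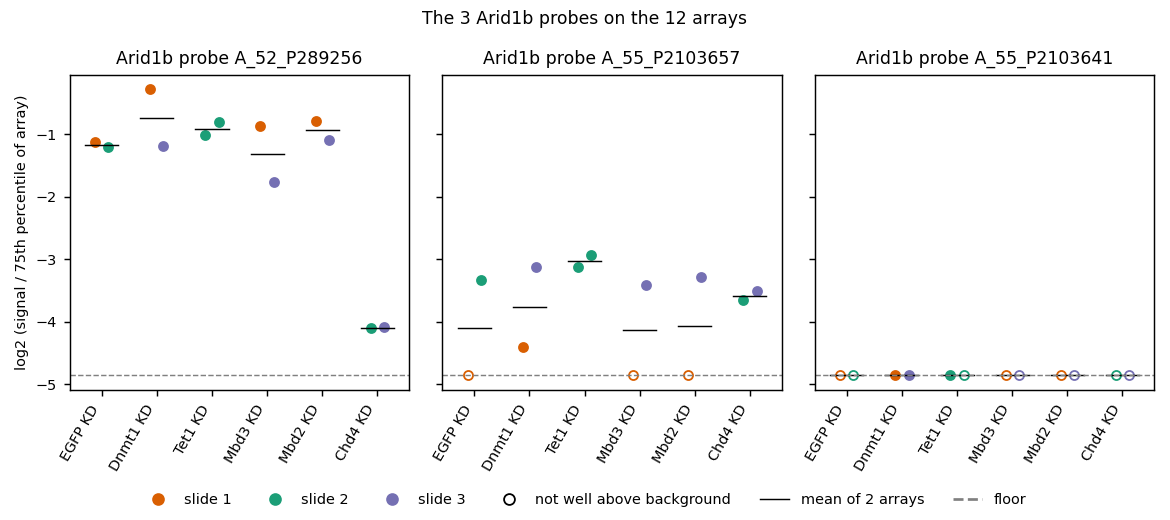
Log2 signal relative to the array's 75th percentile (y axis) of the 3 Arid1b probes on each array, grouped by KD (x axis) and coloured by slide, with open circles for arrays where the probe was not well above background, black lines for the mean of 2 arrays and a dashed line for the floor at -4.86. A_52_P289256 drops to about -4.10 on both Chd4 KD arrays only, A_55_P2103657 is low on slide 1, and A_55_P2103641 is at the floor throughout.

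In the other KDs Arid1b was tested, and it did not pass. The differences of A_52_P289256 from EGFP KD were -0.15 for Mbd3 KD (95% CI -1.01 to 0.70), 0.23 for Mbd2 KD (-0.63 to 1.09), 0.43 for Dnmt1 KD (-0.43 to 1.29) and 0.25 for Tet1 KD (-0.61 to 1.11). The order of the mean levels was Dnmt1 KD (-0.73), Tet1 KD (-0.91), Mbd2 KD (-0.93), EGFP KD (-1.16), Mbd3 KD (-1.32) and Chd4 KD (-4.10), and no neighbours before Chd4 KD differed beyond the spread of up to 0.65 (SD) between 2 arrays of a group. Chd4 KD lay 2.78 below Mbd3 KD, a difference given without a test because it rests on the same Chd4 KD arrays.

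Among the other 9 members none was called in Chd4 KD by limma at an adjusted p under 0.05, the rule that called 3.19% of all 29839 genes. That is 952 genes, a count that was 318 without EGFP KD replicate 1, 505 without EGFP KD replicate 2, 478 without Chd4 KD replicate 1 and 329 without Chd4 KD replicate 2. At an unadjusted p under 0.05, which 12.8% of genes passed, 3 of 9 did (Arid1a, Smarcb1 and Actl6a), all lower. Both Chd4 KD arrays lay below both EGFP KD arrays for 4 of 9 members, against 18.9% of all genes, and above them for 1 member, against 19.1%. The median log2 fold change of the 9 members was -0.05, and that of all genes was 0.00. Such a count below both EGFP KD arrays was also found in Tet1 KD, but not in every KD. In Tet1 KD, as labelled, both arrays lay below both EGFP KD arrays for 5 of 10 members, against 11.97% of all genes. They lay above them for 1 member, against 23.24%. In Mbd3 KD and Dnmt1 KD the count below was 2 of 10 each, against 16.9% and 10.4%. In Mbd2 KD, as labelled, no member lay below, against 12.4% of all genes, and 1 lay above, against 10.5%. The comparisons all share the 2 EGFP KD arrays.

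Among the other members the paralog Arid1a fell furthest in Chd4 KD, while Smarcb1 had the lower limma adjusted p (0.12 against 0.13). Probe A_55_P2167769 read 2.33 and 2.15 in EGFP KD and 1.26 and 1.60 in Chd4 KD, with the other 8 arrays between 1.81 and 2.44, so the 2 lowest of the 12 values were those of Chd4 KD. Its difference was -0.81 (SE 0.22, 95% CI -1.33 to -0.29, limma adjusted p = 0.13), and on slide 2 alone it was -0.89. The second probe, A_66_P116888, read 0.90 and 0.42 in EGFP KD and 0.24 and 0.18 in Chd4 KD, a difference of -0.45 (95% CI -1.12 to 0.22). Its Chd4 KD values were again the lowest of the 12, with Mbd3 KD replicate 2 close above at 0.25, and on slide 2 the gap was -0.18. In Mbd3 KD the difference of A_55_P2167769 was -0.23 (95% CI -0.76 to 0.29), and in the remaining KDs it lay between -0.21 and 0.02.

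Smarca4, the ATPase of the complex, had a probe on each of 2 transcripts. A_55_P2154684 (NM_001174078) read 4.66 and 4.47 in EGFP KD and 4.08 and 4.29 in Chd4 KD, a difference of -0.38 (95% CI -0.83 to 0.07). A_55_P2154690 (NM_001174079) gave -0.41 (95% CI -1.23 to 0.41). Both had the Chd4 KD arrays below both EGFP KD arrays, and neither passed the test. The other 4 differences of the first probe lay between -0.19 in Tet1 KD and 0.23 in Mbd2 KD.

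Among the core subunits, Smarcb1 (Snf5), which binds the acidic patch of the nucleosome, read 2.54 and 2.50 in EGFP KD, 2.33 and 2.28 in Mbd3 KD and 2.25 and 1.99 in Chd4 KD. These 4 were its lowest values, with differences of -0.40 (SE 0.11, limma adjusted p = 0.12) in Chd4 KD and -0.21 (95% CI -0.46 to 0.04) in Mbd3 KD. With other processing or fewer arrays these differences ran from -0.53 to -0.22 in Chd4 KD and from -0.24 to 0.02 in Mbd3 KD. On slide 2 alone the Chd4 KD array was 0.24 below the control (2.25 against 2.50). Smarce1, an HMG-box subunit, differed from EGFP KD by between -0.08 and 0.20 over the 5 KDs, and Smarcd1 by between -0.11 and 0.03. The intervals of Smarce1 and Smarcd1 in Chd4 KD ran from -0.27 to 0.25 and from -0.41 to 0.44.

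Smarcc1, a scaffold subunit, stood between 1.87 and 2.22 on 11 arrays by probe A_55_P2131153 and at 1.14 on Dnmt1 KD replicate 2. The difference in Dnmt1 KD, -0.43 (95% CI -1.05 to 0.19), came from that array, since Dnmt1 KD replicate 1 read 2.01. A dimmer probe of the gene, A_52_P312837, read -1.13 and -1.14 in EGFP KD and lower on each of the other 10 arrays, down to -1.60 and -1.81 in Mbd3 KD. With every probe fitted on its own its difference there was -0.58 (SE 0.13, limma adjusted p = 0.13), and the brightest probe gave -0.04.

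Smarcc2, the paralog of Smarcc1, showed the slides more than any KD. Probe A_52_P389230 read between -2.55 and -2.05 on the 4 arrays of slide 1 and between -1.09 and -0.61 on the 8 arrays of slides 2 and 3. Slide accounted for 94.2% of its variance over the 12 arrays, against a median of 46.8% over all genes, and 3.44% of genes had a larger share. The difference in Chd4 KD was 0.63 (95% CI -1.38 to 2.65) as pooled, -0.19 on slide 2 and -0.15 with slide as a block. Tet1 KD, with both arrays on slide 2, gave 0.88 as pooled and 0.04 with the block. None of these values passed the test.

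Actl6a, an actin-related subunit also found in Tip60-p400, read 3.45 and 3.19 in EGFP KD, which were 2 of its 3 highest values. Its differences were -0.53 in both Chd4 KD and Mbd3 KD (SE 0.18, limma adjusted p = 0.23 and 0.35), and between -0.35 and -0.28 with the other factors knocked down. The 5 values had the same sign against the same 2 control arrays. Actl6a differed by 0.00 between Chd4 KD and Mbd3 KD (95% CI -0.42 to 0.42). The size depended on the processing, with alternatives from -0.66 to -0.16 in Chd4 KD and from -0.66 to -0.10 in Mbd3 KD. In Mbd2 KD they ran from -0.51 to 0.07. Dpf2, a PHD-finger subunit that reads acetylated histone H3, lay between 2.26 and 2.83 on 11 arrays and at 3.24 on Mbd3 KD replicate 1. Its difference in Mbd3 KD, 0.35 (95% CI -0.28 to 0.97), came from that array.

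**Figure D2:**
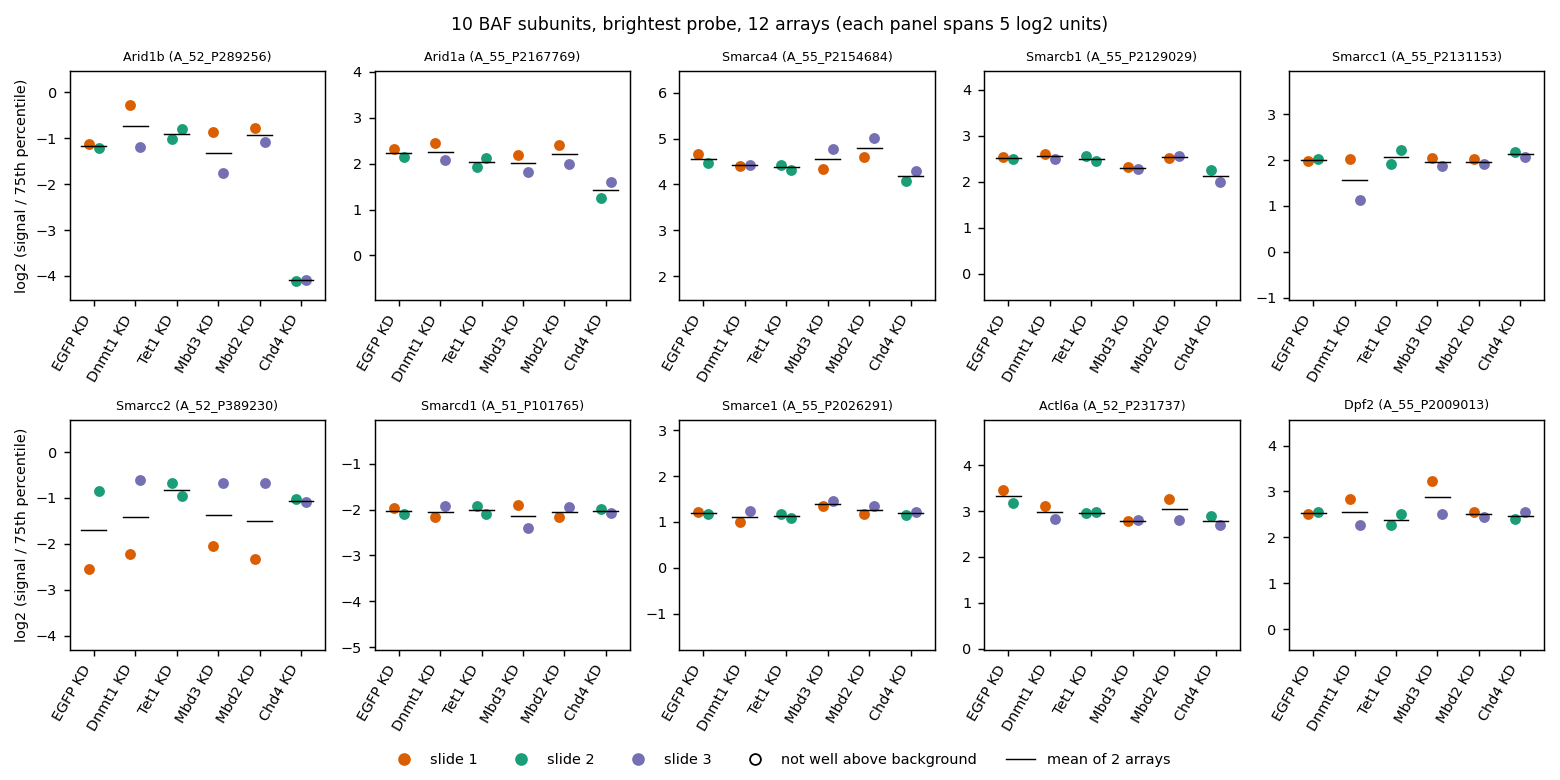
Log2 signal relative to the array's 75th percentile (y axis, each panel 5 log2 units high) of the brightest probe of each of the 10 subunits by KD (x axis), with 1 point per array coloured by slide and a black line for the mean of 2 arrays. Arid1b is low on both Chd4 KD arrays, Arid1a is lowest there by a smaller step, and Smarcc2 is low on slide 1 in every group that has an array on it.

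No member was called in Mbd3 KD, where 0.764% of genes were called, and 1 of 10 (Actl6a) passed an unadjusted p under 0.05, against 9.66% of genes. The 228 genes called in Mbd3 KD were 28 without EGFP KD replicate 1 and 30 without Mbd3 KD replicate 1, at most 123 without any other array, and 56 with slide as a block. Limma called 0% of genes for Mbd2 KD, 0% for Tet1 KD and 0% for Dnmt1 KD, and no member passed an unadjusted p under 0.05 there either, against 2.08%, 2.85% and 4.73% of genes in that order. Between Chd4 KD and Mbd3 KD, where 1.45% of genes were called, none of the other 9 members was called, and 1 (Arid1a, -0.57, 95% CI -1.10 to -0.05) passed an unadjusted p under 0.05, as did 10.1% of genes. The median of the 10 members lay between -0.08 and 0.01 in these 4 KDs other than Chd4 KD, and that of all genes between -0.03 and 0.09.

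**Figure D3:**
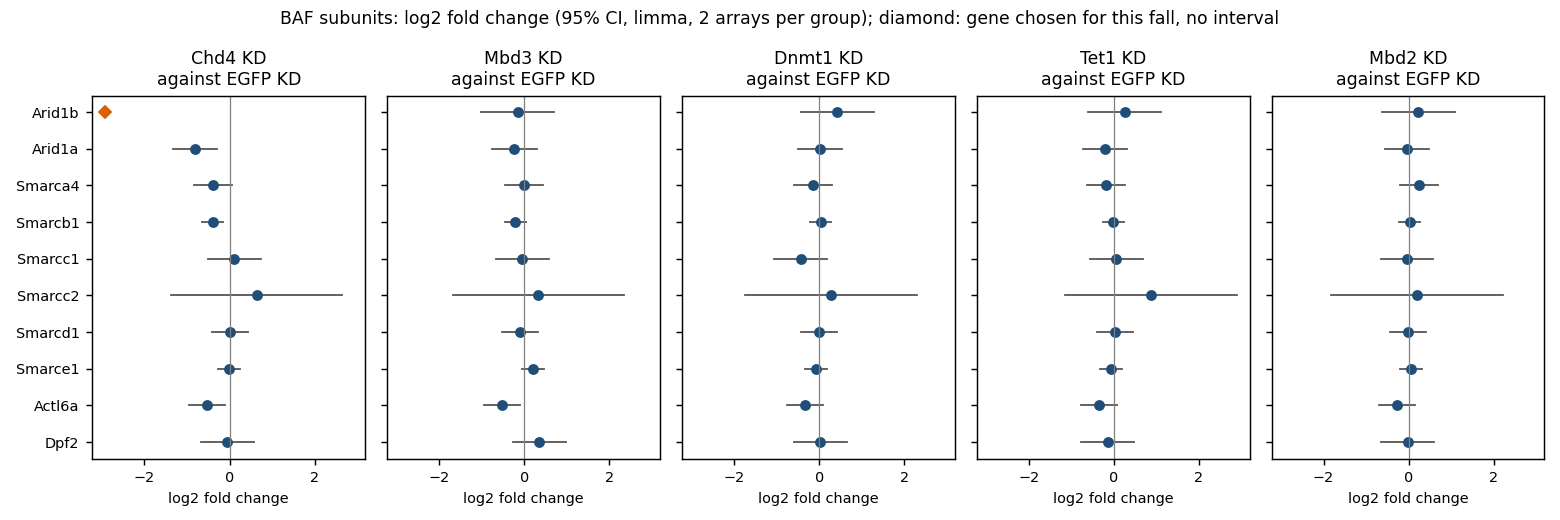
Log2 fold change (x axis) of the 10 subunits in each KD against EGFP KD, with limma's 95% confidence interval over 2 arrays per group, and a diamond without interval for Arid1b in Chd4 KD, the value the gene was chosen for. Arid1b stands at -2.93 there, Arid1a at -0.81, and the interval of Smarcc2 is wide in every KD.

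The other subunits of the SWI/SNF family were taken as a list from general knowledge. Earlier results of these data were known by then, so its counts are not independent of them. Of 21 such genes, all tested and all well above background on every array, 3 fell in Chd4 KD and none rose, and none was called in the other 4 KDs against EGFP KD. Of all genes, 1.24% were called lower in Chd4 KD. The median of the list was -0.19 in Chd4 KD, and that of all genes was 0.00. At an unadjusted p under 0.05, 5 were lower in Chd4 KD (also Brd7 and Brd9), against 6.41% of all genes, and 1 was lower in Mbd3 KD (Brd7), against 5.3%, and none was higher in either.

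Smarcd3, an alternative of Smarcd1 known for its part in heart and muscle, fell most. It read -0.79 and -0.89 in EGFP KD, -2.78 and -2.70 in Chd4 KD, and between -1.24 and -0.68 on the other 8 arrays, so that no other array came near. Its log2 fold change was -1.90 (SE 0.17, limma adjusted p = 0.0027), and it was also lower in Chd4 KD than in Mbd3 KD, by -1.61 (limma adjusted p = 0.0084), as the 1 gene of the 21 called there. Smarcd1 gave 0.01 and Smarcd2 gave 0.26 in Chd4 KD (95% CI -0.41 to 0.44 and -0.23 to 0.75).

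Bcl7a, an accessory subunit, read -2.70 and -2.73 in EGFP KD and -4.07 and -3.82 in Chd4 KD, with the other 8 arrays between -3.15 and -2.29. It fell by 1.23 on the log2 scale (SE 0.20, limma adjusted p = 0.025), while Bcl7b and Bcl7c gave -0.27 and -0.19. Bicral, a subunit of the non-canonical BAF that lacks the ARID subunits, read 0.09 and -0.06 in EGFP KD, -0.97 and -0.80 in Chd4 KD and between -0.40 and 0.04 elsewhere, and fell by 0.90 on the log2 scale (SE 0.16, limma adjusted p = 0.033). Its partner Brd9 gave -0.76 (limma adjusted p = 0.36) and Bicra -0.08.

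The adjusted p of Bcl7a was 0.053 with slide as a block, 0.064 without the 4 arrays labelled Tet1 KD and Mbd2 KD, 0.073 with normexp background correction and 0.056 with a trended, robust prior. The adjusted p of Bicral was 0.051 without either Dnmt1 KD array and 0.061 without either Mbd3 KD array. The calls of both genes thus depended on the setting. Without 1 of the EGFP KD or Chd4 KD arrays the adjusted p was between 0.019 and 0.028 for Smarcd3, between 0.091 and 0.14 for Bcl7a and between 0.10 and 0.19 for Bicral, and with the 4 arrays of the comparison alone it was 0.16, 0.18 and 0.20.

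**Figure D4:**
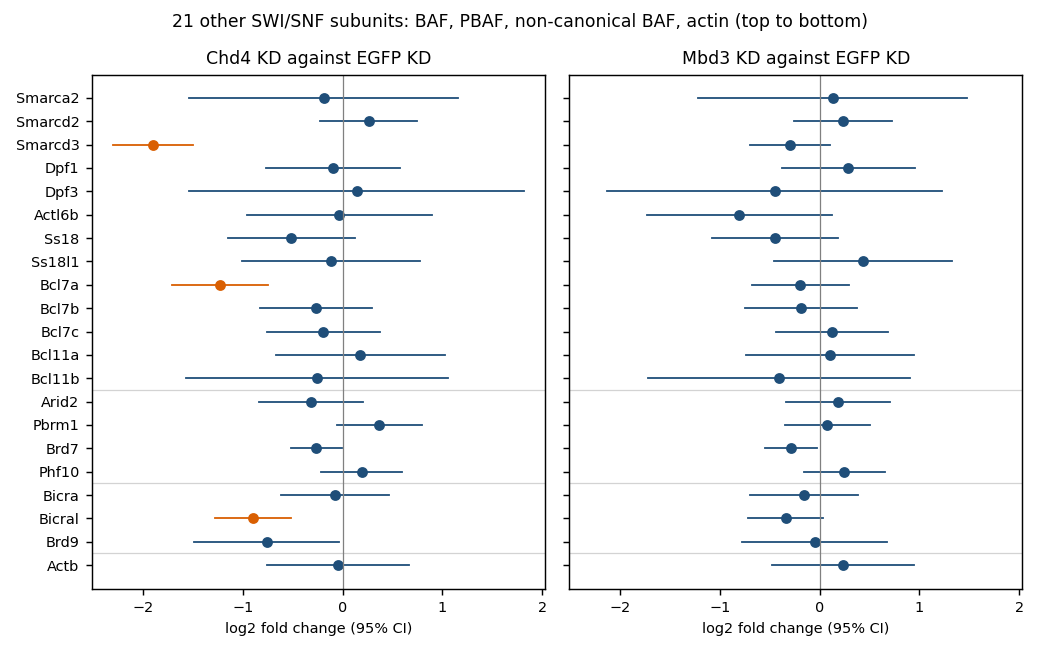
Log2 fold change (x axis, bars for limma's 95% confidence interval over 2 arrays per group) of 21 further SWI/SNF subunits in Chd4 KD and Mbd3 KD against EGFP KD, with genes at an adjusted p under 0.05 in orange. Smarcd3 (-1.90), Bcl7a (-1.23) and Bicral (-0.90) are orange in Chd4 KD, and no gene is orange in Mbd3 KD.

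The PBAF subunits Arid2, Pbrm1, Brd7 and Phf10, which mark the assembly without Arid1a or Arid1b, gave between -0.32 and 0.37 in Chd4 KD, with Pbrm1 the highest of the 21 genes at 0.37 (95% CI -0.06 to 0.79). In Mbd3 KD the extremes were Actl6b, the neuronal counterpart of Actl6a, at -0.81 and Ss18l1 at 0.43. Bcl11b (-1.17) and Bcl11a (0.47) were the extremes in Dnmt1 KD, Brd9 (-0.55) and Bcl11b (0.32) in Tet1 KD, and Actl6b (-0.59) and Bcl11a (0.64) in Mbd2 KD. None of these passed the test. In the comparison of Chd4 KD with Mbd3 KD, Actl6b was the highest at 0.77 (95% CI -0.15 to 1.70).

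NuRD and Tip60-p400, other remodellers, were set beside BAF. Of 13 NuRD genes tested, Chd4 itself was the only one called in Chd4 KD and Mbd3 itself the only one called in Mbd3 KD, and of 16 Tip60-p400 genes none was called in any comparison. The medians in Chd4 KD were -0.07 and -0.09.

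The 5 named genes most like Arid1b over the 12 arrays, among 7468 that were well above background on all arrays with an SD of at least 0.3, were Zscan5b (Pearson r = 0.98), Socs7 (0.97), Smarcd3 (0.96), Hhex (0.96) and Phlda2 (0.95). Each was lowest on the 2 Chd4 KD arrays, with differences from EGFP KD of -1.48, -0.82, -1.90, -1.22 and -1.28 in that order. Among the 9 other members r was 0.90 for Arid1a and 0.84 for Smarcb1 and at most 0.44 for the rest. These are descriptions over 12 arrays that share slides and a control, and they lean on the 2 Chd4 KD arrays, whose values chose Arid1b. Without those arrays r was 0.81 for Zscan5b and 0.48 for Smarcd3. Among the members it was then 0.76 for Arid1a, 0.55 for Smarcb1 and between 0.24 and 0.40 for Smarcc1, Smarcd1, Actl6a and Dpf2. It was negative for Smarce1 (-0.78), Smarcc2 (-0.55) and Smarca4 (-0.47).

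Some markers of other cell types also differed from EGFP KD. The 4 fibroblast or feeder markers tested, which include Col1a1 and Thy1 and were well above background on all arrays, summed to between 3.82 and 4.13 in EGFP KD, 8.78 and 10.8 in Chd4 KD, 5.80 and 6.04 in Dnmt1 KD and 8.45 and 8.84 in Mbd3 KD, in units of the 75th percentile. In Chd4 KD 2 of the 4 rose and in Mbd3 KD 1 did, and the ranges of these KDs overlapped. The trophectoderm markers summed to between 0.624 and 0.633 in EGFP KD and 0.819 and 0.889 in Chd4 KD, and the primitive endoderm markers to between 0.615 and 0.921 and between 0.882 and 0.982. None of 5 primitive endoderm, 4 mesoderm or 5 neural markers was called in any KD. Of 5 trophectoderm markers 1 was called lower in Mbd3 KD and none was called in Chd4 KD against EGFP KD. The lowest log2 fold change of these 5 was the same, -0.86, in Mbd3 KD, Dnmt1 KD and Tet1 KD, as happens where a probe lies at the floor. The part of such cells in the values above was not tested.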

How the data were processed

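RNA of 12 samples was labelled with one dye and hybridised to Agilent mouse arrays, and the authors read the scans with Feature Extraction 10.7.1.1 and deposited, per the file headers, a processed intensity for each spot after background subtraction and spatial detrending, with no scaling across arrays. A further table, of log2 values set against EGFP KD, was deposited by the authors. Set against the scanner values, it follows the log2 of a ratio of quantile-normalized log2 signals, so its differences are compressed. It holds 12459 rows, 8 of them for 4 of the 10 members. Depth in reads does not apply to arrays, and their number limits the precision.

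Control spots (1377) and outlier spots were left out. Intensities were scaled to the 75th percentile of their array, and log2 was taken above a floor of 0.0344, the largest of the arrays' minimum signals that passed background. A total of 36113 probes passed background throughout some group, and a gene was represented by its brightest probe. Accessions were named through RefSeq (GRCm38.p6), which matched 71.4% of spots.

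Limma 3.58.1 (R 4.3.3) fitted a model with 6 groups, with Benjamini-Hochberg adjustment over 29839 genes in each comparison, and was tested on simulated data. The arrays of a group were named replicates in the labels and biological replicates in the study's methods. The members and lists were chosen with earlier results of these data known. The genes named are the members, every Arid1b probe, the other SWI/SNF subunits called or with the largest rise or fall in a comparison, the 5 genes most correlated with Arid1b, and targeted genes where a result turns on them. Smarcc1 probe A_52_P312837, the second probes of Arid1a and Smarca4, Brd7 and Brd9, and the paralogs of called subunits were named after their values were seen. Alternatives were other normalizations, filters, probe summaries and variance priors, array weights, replicate number or slide as a block, fewer arrays, the authors' table, and each array left out.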

Additional observations from a re-analysis of the deposited data

How the results depend on the processing

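In the main fit none of the other 9 members in Chd4 KD was called at an adjusted p under 0.05 or 0.1. The same held for the 10 members in the other KDs. The threshold of 0.1 was counted in that fit only, and Smarcb1 fell under it in Chd4 KD in an alternative. At 0.05 no member was called under another normalization, filter, probe summary, block, weighting or set of scanner arrays. Each array left out in turn gave counts of 0 to 0 members in each of the 6 comparisons. Fits that called 0 genes in all, such as those on the 4 arrays of Chd4 KD and EGFP KD alone, say nothing about the members. At an unadjusted p under 0.05 the count was 3 in Chd4 KD, 1 in Mbd3 KD and 1 in Chd4 KD against Mbd3 KD. The authors' table, in which the control's spread is left out, called 1 of 3 members in Chd4 KD (Arid1a, adjusted p = 0.015) and 1 of 4 in Mbd3 KD (Arid1b, adjusted p = 0.034), counting the brightest probe of each. Of the dimmer probes it called Arid1a probe A_66_P116888 (limma adjusted p = 0.015) and Smarce1 probe A_55_P1989885 (limma adjusted p = 0.038) in Chd4 KD. It also called Arid1b probe A_55_P2103641 in Mbd3 KD (limma adjusted p = 0.011). Its ratios are compressed, and gave -0.40 for Arid1b probe A_52_P289256 in Chd4 KD, -0.17 for A_55_P2103641 and 0.06 for A_55_P2103657.

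The difference of A_52_P289256 in Chd4 KD was -2.26 after normexp correction with quantile normalization, -3.16 after quantile normalization alone and -2.63 with slide as a block, and without 1 array it lay between -2.98 and -2.89. For A_55_P2103641 normexp gave -0.64, and with signals at or below 0 set to the lowest positive one it gave -8.89, a value set by that choice. Without EGFP KD replicate 1, A_55_P2103657 gave -0.25 and without EGFP KD replicate 2 it gave 1.27.

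The replicate block, fitted because the groups share replicate numbers, called 0 members in each comparison and left A_52_P289256 at -2.93. Replicate differences of 2 groups correlated between -0.04 and 0.77, and 10 of 15 pairs of groups were over 0.1. The highest (0.64 to 0.77) were among Dnmt1 KD, Mbd3 KD and Mbd2 KD, whose replicates 1 and 2 lay on slides 1 and 3, so the numbers follow slides in part, but not in every group. In Chd4 KD the replicate block called 1284 genes, slide as a block 1294 and neither 952, and in Mbd3 KD these counts were 248, 56 and 228. Of 1403 values of members under an alternative, 86 had the opposite sign, and no value with the opposite sign was called. The cause of the changes was not tested. With 2 arrays per group small changes of a single member could pass undetected, and A_55_P2103641 was too close to background for a fold change.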
